A study of Saccharomyces cerevisiae with 4 samples.

Results

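Transcripts of 10 genes of the yeast phosphate (PHO) system were followed in 4 cultures of budding yeast, Saccharomyces cerevisiae. All came from BY4741, a laboratory haploid with the a mating type. The genes are the phosphatases PHO3, PHO5, PHO11 and PHO8, the phosphate transporters PHO84 and PHO89, and the regulators PHO4, PHO80, PHO85 and PHO81. They were chosen by name, with earlier results of these data known. All 10 had a probeset among the 5449 S. cerevisiae genes tested. The cultures grew exponentially in YPD, a rich glucose medium, and were given either vehicle (2 cultures, control) or 50 μM CG-1521, a histone deacetylase inhibitor, for 1 h (2 cultures), with 1 array each. Strain, medium, temperature and time were the same in both groups, and the only stated difference is the drug. The labels give the 2 cultures of each group as independent biological replicates.

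In yeast, scarce phosphate switches on secreted acid phosphatases, which free phosphate from organic compounds, and high-affinity transporters that carry it in. The transcription factor Pho4 drives these genes. When phosphate is plentiful, the cyclin Pho80 and the kinase Pho85 phosphorylate Pho4 and keep it out of the nucleus, and when it is scarce the inhibitor Pho81 blocks that kinase. PHO5 is a classic model of chromatin control: nucleosomes cover its promoter in the repressed state, and histone acetyltransferases and the deacetylases Rpd3 and Hda1 are known to act there. The comparison addresses which of these transcripts change when growing cells are given CG-1521 for 1 h. The arrays do not measure deacetylase activity or histone acetylation.

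The 3 acid phosphatase transcripts fell with CG-1521 and the cyclin PHO80 rose, while the alkaline phosphatase, both transporters, PHO4, PHO81 and PHO85 did not pass the test. PHO5 fell 4.38-fold, PHO3 3.08-fold and PHO11 2.87-fold, and PHO80 rose 1.55-fold. In all, 4 of the 10 genes were called at a limma adjusted p under 0.05, against 29.7% of all genes tested. By direction, 3 were lower, where 16.8% of all genes were, and 1 was higher, where 12.9% of all genes were. The median change of the 10 genes was -0.36 on the log2 scale, and that of all genes was -0.04. In these bulk cultures, fewer expressing cells and less RNA per cell cannot be told apart.

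The arrays and the strain were checked first. Array medians over all genes lay between 9.82 and 9.89 (log2), and background, the 95th percentile of probesets for another yeast species, lay between 2.42 and 2.45. All 10 PHO genes were above background on all 4 arrays, and their lowest value was 7.35. The 6 a-cell markers read between 9.29 and 12.26. They were not stable: all 6 mean changes were negative (median -0.61), and 3 were called lower, where 16.8% of all genes were. Of the 4 alpha-cell markers, the genes of the opposite mating type, all were above background too, between 2.73 and 9.59. Among these, MF(ALPHA)1 was called lower (-0.75, limma adjusted p = 0.0377). The part of both marker sets in the results was not tested. Among the markers deleted in the strain, MET17 and URA3 read at most 1.99 and 1.47. LEU2 read 2.08 and 2.42 in the controls and 2.77 and 3.09 with CG-1521, and it was above background on 2 of the 4 arrays. Though the strain lacks LEU2, it was called higher (0.68, limma adjusted p = 0.0488), while MET17 and URA3 did not pass. HIS3, of which the strain lacks only an internal piece, was between 10.21 and 10.91 and was called lower (-0.60). Hybridization spikes, added to each sample before hybridization, had medians of 11.41 and 11.83 on the control arrays and 12.23 and 11.99 on the CG-1521 arrays, and their part in the results was not tested.

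**Figure D1:**
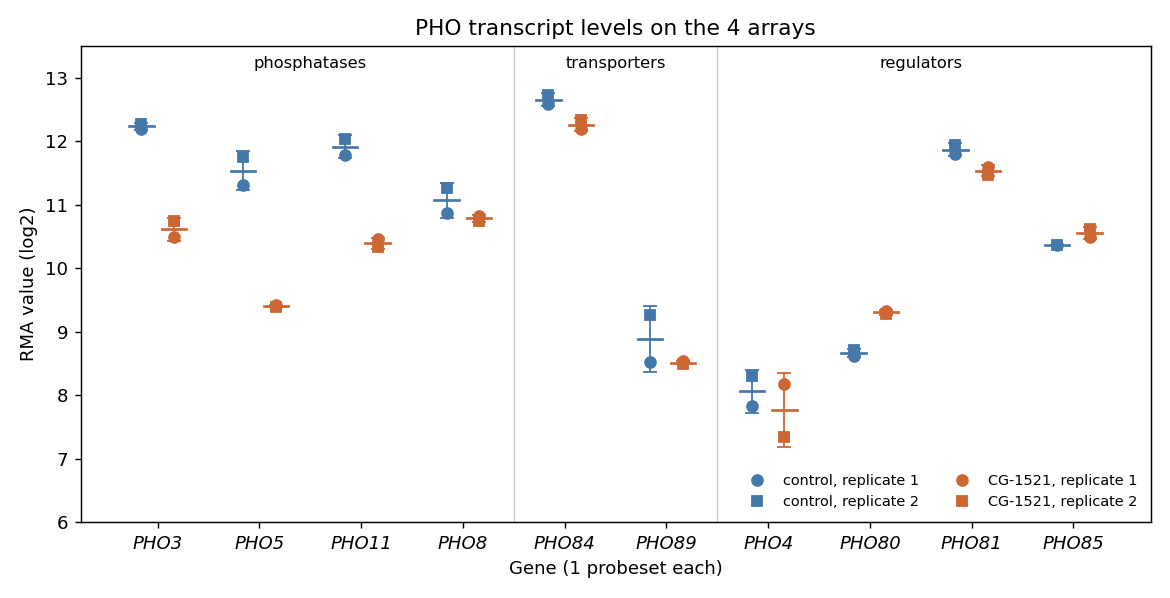
RMA values (log2) of the 10 PHO genes on each array, with circles for replicate 1, squares for replicate 2, bars at the group mean and whiskers of 1 SD (n = 2). PHO3, PHO5 and PHO11 sit clearly lower with CG-1521 and PHO80 sits higher, while the groups of PHO89 and PHO4 overlap; heights of different genes come from different probes and cannot be compared.

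PHO5 (YBR093C) encodes the main repressible acid phosphatase of the cell surface. It read 11.32 and 11.75 on the control arrays and 9.41 and 9.39 on the CG-1521 arrays (log2 values). The treated cultures were almost equal, and each lay well below both controls. PHO5 fell by 2.13 on the log2 scale (SE 0.17, limma adjusted p = 0.00756), the 4th lowest change of the 5449 genes.

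PHO3 (YBR092C), its tandem neighbour, encodes an acid phosphatase that is made when phosphate is plentiful, is repressed by thiamine and is known to act on thiamine phosphates. Its control values were 12.20 and 12.28, and its CG-1521 values 10.49 and 10.74. The controls differed by 0.08, and the groups lay far apart. The log2 change was -1.62 (SE 0.13, limma adjusted p = 0.00756), the 17th lowest of all genes.

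PHO11 (YAR071W) encodes a minor repressible acid phosphatase near a chromosome end. It read 11.79 and 12.04 without the drug and 10.46 and 10.33 with it, so that every treated value was more than 1 unit below every control. PHO11 fell by a log2 value of 1.52 (SE 0.13, limma adjusted p = 0.00768), the 27th lowest. The name of its probeset shows that the probes also match other sequences, and its near-identical copy PHO12 had no probeset of its own, so the 2 genes cannot be separated. PHO3 and PHO5 are also similar in their coding sequence, and whether their probesets share signal was not tested.

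With 1 control array left out, the calls of PHO3 and PHO11 stood close to the threshold. Without control replicate 1 the limma adjusted p was 0.0502 for PHO3 and 0.0477 for PHO11, and without control replicate 2 it was 0.0549 for both. PHO5 passed in each of these fits, at 0.0477 and 0.0415.

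Among the acid phosphatases, the fall of PHO5 exceeded that of PHO3 by 0.51 and that of PHO11 by 0.61 on the log2 scale. The PHO5 value minus the PHO3 value was between -0.88 and -0.53 on the control arrays and between -1.35 and -1.07 on the CG-1521 arrays, so the groups did not overlap. For PHO5 minus PHO11 the same held, with -0.47 to -0.29 in control and -1.04 to -0.94 with CG-1521. In the exact permutation test over the 4 arrays, two-sided, both differences had p = 0.333, the smallest value that 2 against 2 arrays allow, and adjusted over the 4 pairs tested p = 0.444.

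PHO8 (YDR481C), the alkaline phosphatase of the vacuole and another target of Pho4, did not pass. The controls read 10.87 and 11.26 and the treated cultures 10.82 and 10.75. Both treated values were the lower ones, but control replicate 1 lay close to them. Its log2 difference was -0.29 (95% interval -0.71 to 0.13, limma adjusted p = 0.231).

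**Figure D2:**
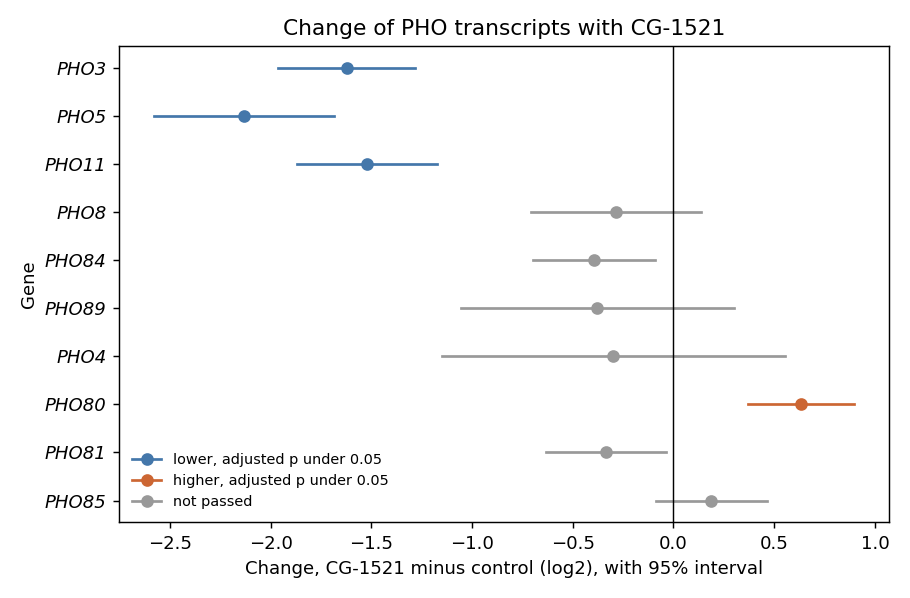
Change of each PHO transcript (CG-1521 minus control, log2) with its unadjusted 95% interval from the limma fit. The intervals of PHO3, PHO5 and PHO11 lie wholly below -1, that of PHO80 lies above 0, and those of PHO8, PHO89, PHO4 and PHO85 include 0.

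Neither high-affinity transporter passed. PHO84 (YML123C), the proton-coupled phosphate symporter that dominates uptake when phosphate is scarce, had control values of 12.58 and 12.73 and treated values of 12.19 and 12.33. Each treated culture was below both controls, by a margin somewhat larger than the gap between replicates. The change of -0.40 missed the threshold (95% interval -0.70 to -0.09, limma adjusted p = 0.0611). Hda1 is known to silence PHO84 when its antisense RNA accumulates, and probes for that antisense RNA were not used here.

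PHO89 (YBR296C), the sodium-coupled phosphate cotransporter, read 8.52 and 9.26 in the controls and 8.53 and 8.49 in the treated cultures. The groups overlapped: control replicate 1 stood at the treated level, and control replicate 2 was 0.73 above control replicate 1. The log2 difference was -0.38 (95% interval -1.05 to 0.30, limma adjusted p = 0.312). The changes of PHO84 and PHO89 differed by 0.02 (exact permutation p = 1.00, two-sided), and the sign of that difference turned with the array left out.

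Of the regulators, PHO80 (YOL001W) alone was called. This cyclin, which directs the Pho85 kinase to Pho4, read 8.62 and 8.71 in the controls and 9.33 and 9.28 in the treated cultures. Replicates differed by 0.09 and 0.05, and the groups lay well apart. The log2 change was 0.63 (SE 0.10, limma adjusted p = 0.0175), the 583rd highest of all genes. The call ended without control replicate 1 and without control replicate 2, where the change was 0.59 and 0.68. The call also ended when replicate number was a block in the limma fit (adjusted p = 0.0538).

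PHO85 (YPL031C), the cyclin-dependent kinase that Pho80 and other cyclins activate, read 10.37 on both control arrays and 10.49 and 10.62 with CG-1521. Both treated values were higher, by little: the log2 change was 0.19 (95% interval -0.09 to 0.46, limma adjusted p = 0.227). The change of PHO80 exceeded that of PHO85 by 0.45. That difference had the smallest possible exact permutation p of 0.333, and the groups did not overlap.

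PHO81 (YGR233C), the inhibitor of Pho80 and Pho85 and itself a target of Pho4, had control values of 11.79 and 11.94 and treated values of 11.59 and 11.47. The treated cultures were both lower, and the log2 change of -0.33 (95% interval -0.63 to -0.04) did not pass after adjustment (limma adjusted p = 0.0877).

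PHO4 (YFR034C), the activator, had the largest SE of the 10 (0.33). Control arrays gave 7.82 and 8.30 and CG-1521 arrays 8.18 and 7.35, so the groups overlapped and the treated cultures differed by 0.83. The change was -0.30 (95% interval -1.15 to 0.56, limma adjusted p = 0.512), and it became 0.12 without CG-1521 replicate 2. Groups did not overlap for 8 of the 10 PHO genes, against 72.3% of all genes tested. By direction, 6 of the 10 were lower without overlap, where 40.9% of all genes were, and 2 of the 10 were higher without overlap, where 31.4% were.

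Genome position was looked at next, since PHO3 and PHO5 lie side by side. The nearest measured gene on each side of the 10 PHO genes gave 17 further genes, of which 5 fell, 2 rose and 10 did not pass, where 16.8% of all genes fell and 12.9% rose. Without control replicate 1 or control replicate 2, 0 of the 17 passed in limma, with 5 and 7 at an unadjusted p under 0.05, and 4 passed when all probesets of the array were fitted together. PBY1, which faces away from PHO5 across the same intergenic region, stood at -0.15 (limma adjusted p = 0.355). TIM12, a mitochondrial import protein gene beyond PHO3, stood at -0.38 (adjusted p = 0.154). The single measured neighbour of PHO11 was YAR068W, which rose by 0.57 (adjusted p = 0.0200).

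Beside PHO84, the tubulin gene TUB3 stood at 0.02 and GTR1, a small GTPase gene of TOR signalling, at 0.37, and neither passed. PHO80, which rose, lies between IZH2 (0.20, not passed) and RRP6, a nuclear exosome nuclease gene, which fell by 0.75 (adjusted p = 0.0145). PHO81 lies between the proteasome chaperone gene NAS6, which rose by 0.57, and the flavohemoglobin gene YHB1, which fell by 1.21. Both neighbours of PHO85 fell, SVL3 by 0.57 and TRM44 by 0.64, and so did MAL33 beside PHO89, by 0.67.

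**Figure D3:**
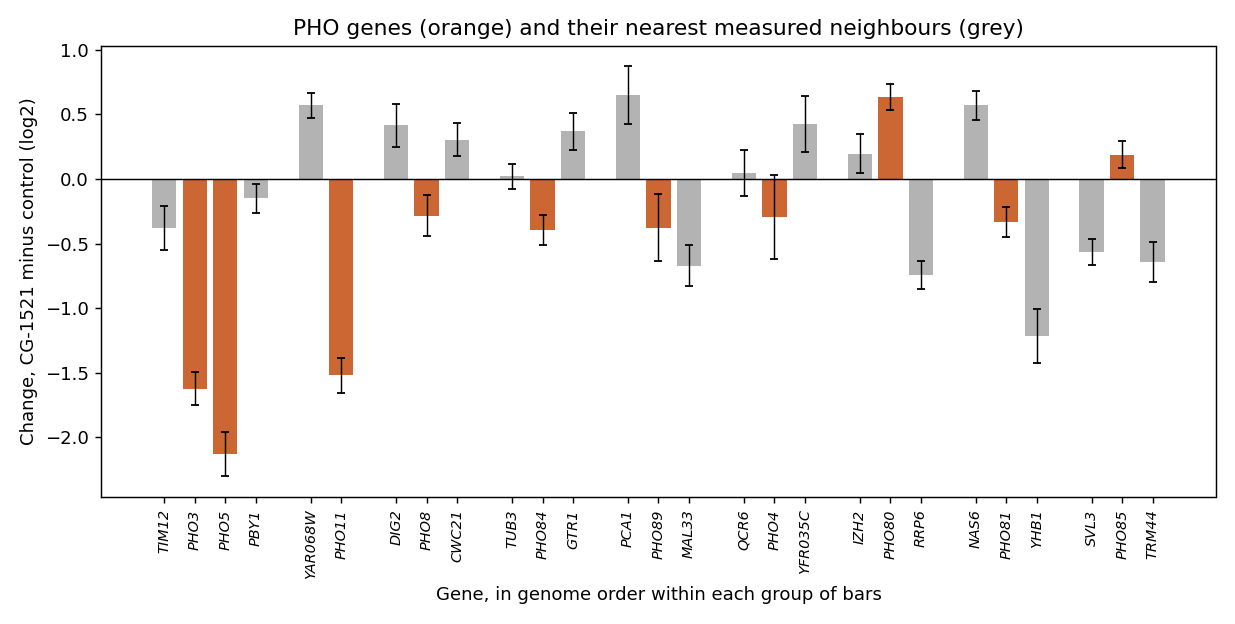
Change (CG-1521 minus control, log2) of each PHO gene (orange) and of its nearest measured neighbours (grey), in genome order within each cluster of bars; whiskers are 1 SE of the limma fit. TIM12 (-0.38) and PBY1 (-0.15), on either side of PHO3 and PHO5, have shorter bars that did not pass, and YAR068W beside PHO11 points up (0.57).

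Other genes of the pathway were described in 7 lists with 64 measured genes in all. Of these, 10 rose and 10 fell, so 31.2% were called, close to the 29.7% of all genes. The lists are given by their members.

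Pho4 targets beyond the 10 genes moved in both directions. Of 14 such targets 3 rose and 1 fell, where 12.9% of all genes rose and 16.8% fell. The remaining 10 did not pass, and the median change was 0.07. VTC3, a subunit of the vacuolar polyphosphate polymerase, fell from 11.74 and 11.73 to 10.95 and 11.03, by 0.74 (SE 0.10, limma adjusted p = 0.0128). The genes that rose were GPP2, a glycerol-3-phosphate phosphatase that also answers to osmotic stress (1.31, SE 0.22), PHM7 (1.51, SE 0.29) and PHM8, a lipid and nucleotide phosphatase (0.55, SE 0.14). The closest of those that did not pass were VTC2 (-0.37, adjusted p = 0.0544), the polyphosphatase PPN1 (0.28) and PHM6 (-0.87, adjusted p = 0.163), whose treated arrays read 6.89 and 5.86.

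A list of 8 genes held other phosphate transporters together with the GTPase gene GTR1 and SND3 (listed as PHO88). Of these 8 genes 2 fell and 1 rose, where 16.8% of all genes fell and 12.9% rose, and the median was -0.14. PHO90, a low-affinity transporter of the plasma membrane, fell from 11.85 and 11.94 to 11.16 and 11.42, by 0.61 (SE 0.13, adjusted p = 0.0310). PHO91, which exports phosphate from the vacuole, fell by 0.54 (SE 0.11, adjusted p = 0.0292). PIC2, a mitochondrial carrier of phosphate and copper, rose by 0.74 (SE 0.13, adjusted p = 0.0198). The other low-affinity transporter of the plasma membrane, PHO87, stood at -0.04, and its sign turned without control replicate 2.

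Of 9 other Pho85 cyclins, CLG1 fell by 0.65 (SE 0.14, adjusted p = 0.0299), where 16.8% of all genes fell. The other 8 did not pass, among them PCL10, a cyclin of glycogen control (0.73, adjusted p = 0.0540), and PCL1, a G1 cyclin (-0.37, adjusted p = 0.0568). Among 7 inositol pyrophosphate enzymes and co-regulators, 2 rose, where 12.9% of all genes rose. ARG82, the inositol polyphosphate multikinase, went from 8.61 and 8.64 to 10.21 and 9.56, a change of 1.26 (SE 0.23, adjusted p = 0.0231). PHO92, which binds methylated mRNA, rose by 3.14 (SE 0.82, adjusted p = 0.0481), with treated arrays at 7.78 and 5.43. The pyrophosphate kinases VIP1 (-0.32) and KCS1 (-0.24) and PHO2, the partner of Pho4 at the PHO5 promoter (0.35), did not pass. Nor did DDP1 (-0.45, limma adjusted p = 0.0532), which came closest.

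Related phosphatases gave no shared direction. Of 4 measured genes GPP1, a glycerol-3-phosphate phosphatase, fell by 0.48 (adjusted p = 0.0468) and PHM8 rose. Among all genes 16.8% fell and 12.9% rose. DIA3, an acid phosphatase relative of PHO5, had control values of 5.83 and 5.59 and treated values of 7.10 and 6.01, and its change of 0.84 did not pass (SE 0.38, adjusted p = 0.151).

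Among 11 chromatin factors known to act at PHO5, 3 fell and the other 8 did not pass (median 0.01). Of all genes 16.8% fell and 12.9% rose. Those that fell were the remodellers ISW1 (-0.57, adjusted p = 0.0265) and CHD1 (-0.42, adjusted p = 0.0492) and the deacetylase HDA1 (-0.49, adjusted p = 0.0472). RPD3 stood at 0.01, the acetyltransferase genes GCN5 and ESA1 at 0.37 and -0.15, and the remodeller genes SNF2 and INO80 at -0.03 and 0.12. The signs of RPD3, SNF2 and INO80 turned when 1 array was left out.

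Thiamine genes were set beside PHO3 because thiamine represses PHO3 and most enzymes of thiamine synthesis. Among the 12 with a probeset, 4 rose and 2 fell, where 12.9% of all genes rose and 16.8% fell. The median was 0.47, while PHO3 fell. THI22 rose by 0.69, PDC5, a pyruvate decarboxylase gene, by 0.58, THI6 by 0.55 and THI20 by 0.54, and all of these had an SE of 0.14 or less. The 2 that fell were THI80, thiamine pyrophosphokinase (-0.66, SE 0.14), and THI3, a regulator of thiamine genes (-0.46, SE 0.12). Closest among those that did not pass were THI21 (0.51, limma adjusted p = 0.0654) and PDC2 (-0.56, limma adjusted p = 0.0771). THI4, a thiazole synthesis enzyme gene that thiamine strongly represses, gave 6.10 and 6.19 on the control arrays and 7.28 and 5.88 on the treated ones, and the groups overlapped.

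The calls in these 7 lists depended on the arrays and probesets in the fit. Without control replicate 1 or without control replicate 2, 0 of the 64 genes passed in limma, with 19 at an unadjusted p under 0.05 in each case. With all probesets of the array fitted together, 3 of the 64 passed (4.69%), namely VTC3, GPP2 and PIC2, and no thiamine gene or chromatin factor did.

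**Figure D4:**
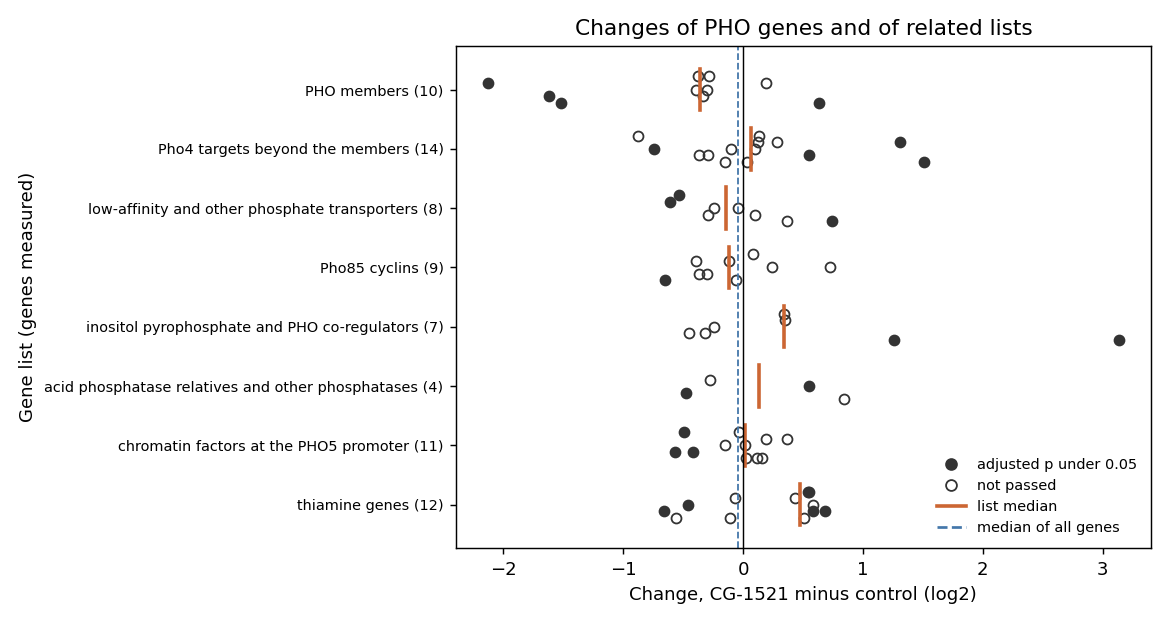
Change (CG-1521 minus control, log2) of each measured gene in the PHO group and in 7 related lists, filled where limma adjusted p was under 0.05; orange bars are list medians and the dashed line is the median of all genes (-0.04). PHO3, PHO5 and PHO11 lie to the left of every gene in the related lists, which spread to both sides of 0.

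The genes most like 3 of the PHO genes in their pattern over the 4 arrays were found by the distance between values centred on each gene's mean. For PHO5 they were MMP1, an S-methylmethionine permease gene (distance 0.12, change -2.21), the mitotic exit checkpoint gene BFA1 (0.40, change -2.16) and SPO74 (0.44, change -1.84). For PHO84 the 3 nearest, MRPL7, GAL1 and AVO1, lay at 0.02, 0.02 and 0.03, and for PHO81 the 3 nearest, SPT23, MNN1 and MRPL50, lay at 0.02, 0.03 and 0.04. With 4 arrays in 2 groups, such a distance mostly reflects the size of the change.

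**Figure D5:**
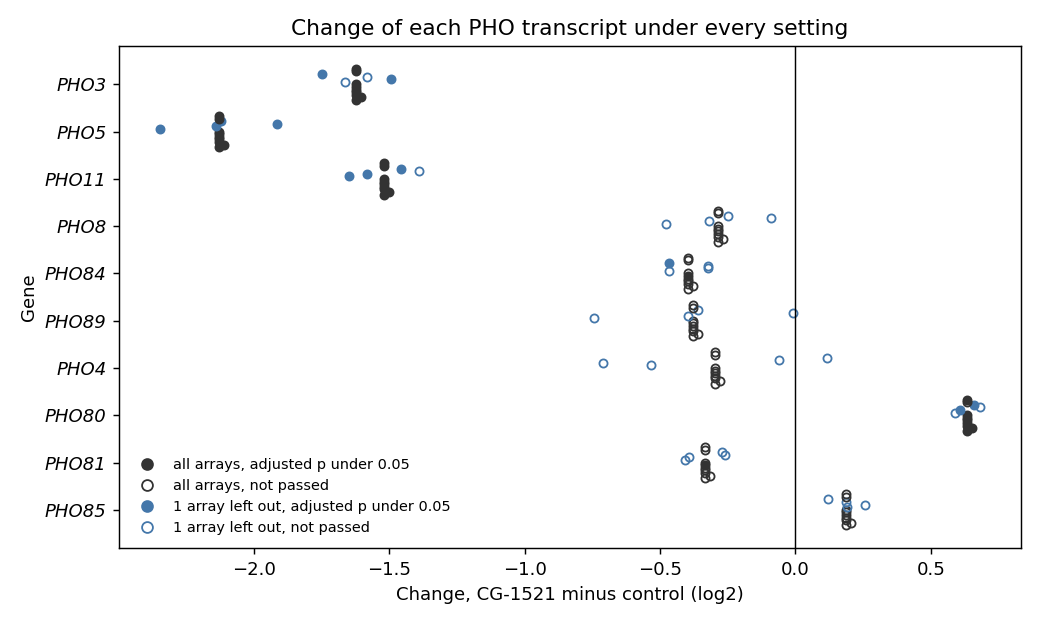
Change (CG-1521 minus control, log2) of each PHO transcript as reported and under 12 other settings; blue points are fits with 1 array left out, and filled points had a limma adjusted p under 0.05. PHO5 is filled under all settings and PHO3 and PHO11 stay below -1.3, while PHO4 spreads from -0.71 to 0.12.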

How the data were processed

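Each array's deposited column holds a log2 value per probeset, made by the authors with Affymetrix Expression Console and RMA (background correction, quantile normalization and probe summary) per the submitters' processing notes. Their versions are not given in the sources used here. Such normalization hides a shift of all transcripts in 1 direction. Of 10928 probesets, 5498 had a gene identifier of S. cerevisiae (R64, for names and gene order only), leaving 5449 genes, each with its brightest probeset where 47 genes had several. Each PHO gene had 1 probeset. A probeset of another species with the symbol pho4 was left out.

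CG-1521 and control arrays were compared by limma 3.58.1 (lmFit and eBayes, R 4.3.3, no block) over all genes, with 2 residual and 2.69 borrowed degrees of freedom and Benjamini-Hochberg adjustment over the 5449 genes. Intervals are 95% and unadjusted. The number of arrays limits the precision (median SE 0.12).

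The PHO genes and the lists were chosen with earlier results of these data known. Named genes are the 10 PHO genes, all called genes of 7 lists, and the 3 nearest patterns of PHO5, PHO84 and PHO81. Others were drawn from the nearest neighbours and from up to 3 further genes per list by smallest p, and not all of these are named. RPD3, GCN5, ESA1, SNF2, INO80, KCS1, PHO2, PHO87, DIA3 and THI4 were also named for their role, with their values seen. The alternatives were another centring, a dim-gene filter, all probesets in the fit, averaged probesets, 2 variance models, each array left out, a replicate block and, added after seeing the data, a crossed replicate block.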

Additional observations from a re-analysis of the deposited data

How the results depend on the processing

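PHO5 was called under all 12 alternatives, 1 of them a crossed pairing chosen after seeing the data, PHO11 under 11, PHO3 under 10 and PHO80 under 9. Adjusted p-values ran from 0.000622 to 0.0477 for PHO5, to 0.0549 for PHO3 and, from 0.000692, to 0.0549 for PHO11, and from 0.0132 to 0.142 for PHO80. With 1 array left out, between 1 and 4 PHO genes were lower and 0 or 1 higher, and over all genes 50 to 1001 were higher and 16 to 1133 lower; the arm with a lone array is then assumed to vary like the other. An intensity trend called 5 PHO genes lower, adding PHO84 (adjusted p = 0.0136, range over alternatives up to 0.330) and PHO81 (0.0314, up to 0.416), and PHO84 also passed without CG-1521 replicate 2 (0.0473). Fitting all probesets gave 334 higher and 444 lower genes. With 1 array left out, signs turned for PHO4 (-0.71 to 0.12), TUB3 (-0.0114 to 0.0554), the PHO4 neighbour QCR6 (-0.16 to 0.25), RPD3 (-0.0235 to 0.0506), SNF2 (-0.0906 to 0.0304), INO80 (-0.0319 to 0.27), PHO87 (-0.0808 to 0.0012), THI4 (-0.26 to 1.13) and the PHO84 minus PHO89 difference (-0.31 to 0.28). None of these genes had passed. The cause of these shifts was not tested.

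The labels do not say that equal replicate numbers mark a shared batch, and same-numbered arrays deviated in opposite directions (correlation -0.26 across genes). With the replicate block 3 PHO genes were lower and 0 higher (PHO80 adjusted p = 0.0538), with 369 genes higher and 450 lower, and it left 5 of the 64 genes of the 7 lists (none a thiamine gene or chromatin factor) and 2 of the 17 neighbours called. The crossed pairing gave 842 higher and 978 lower.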
